A study of Bubalus bubalis with 6 samples.

Results

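Fibrillar collagens are the collagens that assemble into the banded fibrils of connective tissue, and their genes were taken from the gene table by symbol. Of 10 symbols (COL1A1, COL1A2, COL2A1, COL3A1, COL5A1, COL5A2, COL5A3, COL11A1, COL24A1 and COL27A1), 9 were found among 24616 listed genes, and all 9 were among the 15576 genes tested. COL24A1 was not listed and is not analysed here. The samples were primary muscle stem cells (MuSCs) of the water buffalo (Bubalus bubalis), obtained from fetal longissimus muscle by digestion with collagenase and trypsin. The GM group (n = 3) held proliferating cells in a growth medium of DMEM with fetal bovine serum, and the DM group (n = 3) held differentiating cells that had been switched at near confluence to DMEM with horse serum. No sort for a surface marker and no genetic change is given for either group, and the number of fetuses is not given in the sources used here. The labels do not say whether each sample was its own culture, so p-values measure only the spread between these samples, which may be technical. Growth and differentiation media differed in serum, and DM cells were also kept for days after reaching near confluence. Serum, cell density, time in culture and the state of the cells cannot be told apart.

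A fibrillar procollagen is made of pro-alpha chains that are hydroxylated and folded together in the endoplasmic reticulum, exported, trimmed of their propeptides and then crosslinked into fibrils. Types I and III form the bulk of fibrils in muscle connective tissue, types V and XI are minor chains that start fibrils and limit their width, type II is the main collagen of cartilage, and types XXIV and XXVII are shorter relatives of developing bone and cartilage. In muscle, these collagens are known mainly as products of fibroblasts and fibro-adipogenic cells, and cultured myogenic cells express them as well.

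Gene counts summed to between 36657735 and 40305237 in the GM samples and between 35615864 and 38177614 in the DM samples. Markers of myogenic cells were detected in every sample: MYH3, the embryonic myosin heavy chain, had 8605 to 17334 counts in GM and 55632 to 100193 in DM, and DES, which encodes the muscle intermediate filament desmin, had 90575 to 93303 in GM and 60353 to 89216 in DM. DM replicate 3 stood apart from the other DM samples, since its counts differed from theirs by a chi-square of 40.5 and 41.4 for each degree of freedom, against 11.7 for DM replicates 1 and 2 alone. The fibrillar collagens in which this library deviated are therefore given with and without it. DM replicate 3 was singled out after its deviation had been seen, and the other DM samples spread less. A smaller adjusted p without it is therefore not stronger evidence.

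The fibrillar collagens took up a larger part of the transcriptome in DM than in GM. Their summed counts were 1735850, 1713951 and 1565317 in GM replicates 1 to 3 and 4507287, 4490996 and 3967869 in DM replicates 1 to 3. As a share of all gene counts this was 4.34, 4.25 and 4.27% in GM and 12.7, 12.1 and 10.4% in DM. The GM samples lay close together, all DM samples were above them, and DM replicate 3 was the lowest DM sample. The mean share was 4.29% ± 0.0464 in GM and 11.7% ± 1.17 in DM (SD, n = 3 each), a difference of 7.42 percentage points and a ratio of 2.73. The exact two-sided permutation test gave p = 0.1, the smallest value that 3 samples against 3 allow. Without DM replicate 3 the difference was 8.07 percentage points. In bulk samples, more cells of a type that makes collagen and more collagen RNA per cell cannot be told apart.

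Most of this rise came from the major chains. COL3A1 made up 39.6% of it, COL1A1 36.4% and COL1A2 15.5%, and together these genes went from 3.55% ± 0.0452 of gene counts in GM to 10.3% ± 1.09 in DM. The other 6 genes went from 0.738% ± 0.0188 to 1.37% ± 0.0879, with COL5A2 (3.68% of the rise) and COL5A1 (3.23%) as the main contributors. COL5A3 had the largest fold change of the family but made up only 0.839% of the rise, from a low level in GM. A share depends on what else is counted. Against gene counts without the fibrillar collagens themselves, the level was 4.48% ± 0.0507 in GM and 13.3% ± 1.496 in DM. With mRNA transcript counts in place of gene counts it was 4.46% ± 0.0368 and 12.4% ± 1.43. In the mRNA counts, reads in exons shared by the COL3A1 transcripts were counted for both, so that share is not a like-for-like check.

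**Figure D1:**
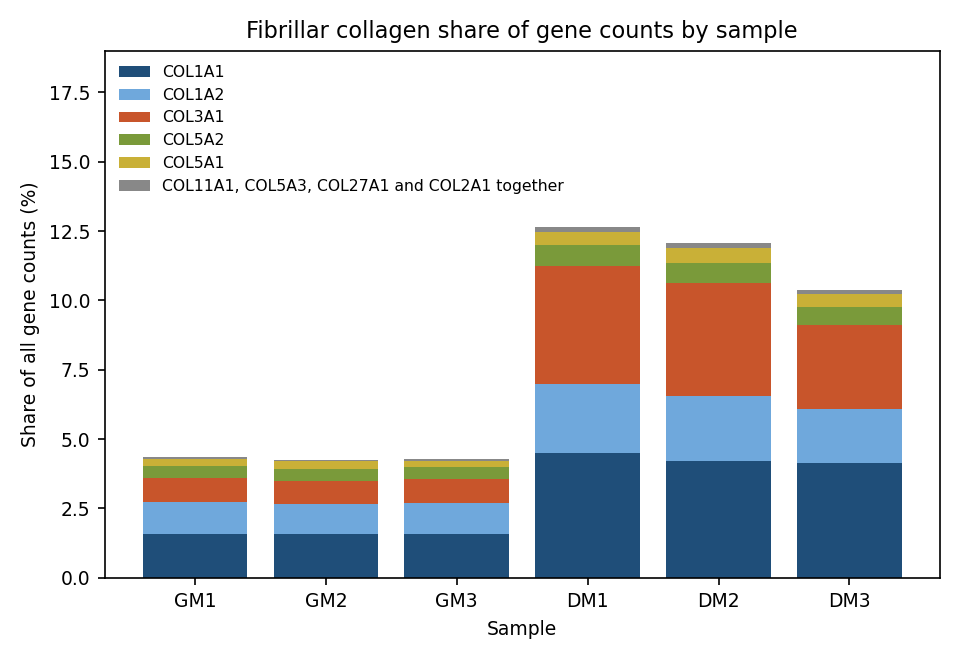
Share of all gene counts (percent, linear axis from 0) taken by fibrillar collagen genes in each of the 3 GM and 3 DM samples, with each bar stacked by gene. The summed share was 4.25 to 4.34% in GM and 10.4 to 12.7% in DM, and COL1A1, COL1A2 and COL3A1 form most of every bar.

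Differential expression was tested with edgeR's quasi-likelihood test, with Benjamini-Hochberg adjustment over all tested genes. A gene was called when its absolute log2 fold change was above 1 and its adjusted p was under 0.05. Of the 9 fibrillar collagen genes, 8 were called, 7 of them higher in DM (COL1A1, COL1A2, COL2A1, COL3A1, COL5A1, COL5A3 and COL11A1) and 1 lower (COL27A1). COL5A2 was below the fold threshold. Over all tested genes, 25.3% were called, 15% higher in DM and 10.3% lower. All 9 genes had an adjusted p under 0.05, which 63% of tested genes also had, and all 9 had CPM values with no overlap of GM with DM, as had 68.8% of tested genes. By these last measures most of the transcriptome differed, not the family alone. The median log2 fold change was 1.19 over the 9 genes and 0.03 over all tested genes.

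**Figure D2:**
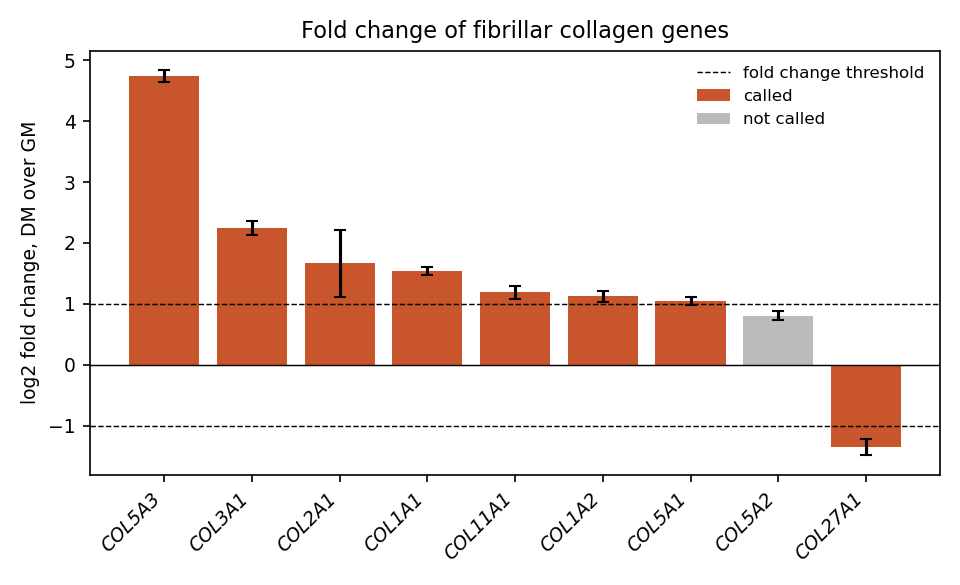
log2 fold change of the 9 fibrillar collagen genes, DM over GM, from edgeR, with bars from 0 and error bars of 1 standard error; dashed lines mark the fold threshold of the call. COL5A3 (4.74) stands above the others, COL5A2 (0.81) lies under the threshold and COL27A1 (-1.36) is the gene that was lower in DM.

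Type I collagen is the main fibril collagen of muscle connective tissue, and a molecule normally holds a pair of COL1A1 chains with a single COL1A2 chain. COL1A1 (ENSBTAG00000013103, chr19:37088246-37104998, plus strand) had 633347, 640389 and 576265 counts in GM replicates 1 to 3 and 1604024, 1572490 and 1573586 in DM replicates 1 to 3. It was the most counted gene in all 6 samples. After TMM scaling its level was 15287 ± 97.9 CPM in GM and 44328 ± 2747 CPM in DM (SD, n = 3 each), a log2 fold change of 1.54 (SE 0.065, adjusted p = 1.93e-08) or 2.90-fold. Its share of gene counts went from 1.58% to 4.28%. Coordinates are those of the gene table, which uses cattle Ensembl identifiers and names no genome build.

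COL1A2 (ENSBTAG00000013472, chr4:11624470-11661163, plus strand) had 456529, 435196 and 406450 counts in GM and 890088, 862400 and 752789 in DM. It was the second most counted gene in the GM samples and the fourth in the DM samples. Its level was 10729 ± 274 CPM in GM and 23420 ± 3007 CPM in DM, a log2 fold change of 1.13 (SE 0.089, adjusted p = 1.33e-06) or 2.18-fold. Without DM replicate 3, its lowest DM sample, the log2 fold change was 1.23 (adjusted p = 1.64e-15). The call was lost in a test against a 2-fold change (adjusted p = 0.151).

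Type III collagen, built from COL3A1 chains alone, is found beside type I in distensible tissues and in the endomysium. COL3A1 (ENSBTAG00000021466, chr2:7318227-7356937, minus strand) had 347124, 336228 and 320160 counts in GM and 1510658, 1526602 and 1158761 in DM. The GM samples were close together, and DM replicate 3 was well below the other DM samples but far above every GM sample. Its level was 8298 ± 192 CPM in GM and 39251 ± 7036 CPM in DM, a log2 fold change of 2.24 (SE 0.117, adjusted p = 6.93e-08) or 4.73-fold. It was the fourth most counted gene in the GM samples and the second in the DM samples. The coefficient of variation was 2.31% in GM and 17.9% in DM. Without DM replicate 3 the log2 fold change was 2.39 (adjusted p = 3.29e-22).

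Type V collagen is a minor partner that is buried inside type I fibrils and governs their start and diameter. COL5A1 (ENSBTAG00000047998, chr11:106856171-106994803, minus strand), whose chain is required in the common form, had 102121, 108502 and 87324 counts in GM and 173187, 193721 and 180864 in DM. Its level was 2458 ± 153 CPM in GM and 5103 ± 204 CPM in DM, a log2 fold change of 1.05 (SE 0.067, adjusted p = 2.87e-07). The estimate lay at the edge of the fold threshold. When scaled by library size without TMM factors, the log2 fold change was 0.96 (adjusted p = 5.05e-07) and the call was lost, and a test against a 2-fold change gave an adjusted p of 0.361.

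COL5A2 (ENSBTAG00000027020, chr2:7139738-7298551, plus strand), which encodes the partner chain, had 174745, 173800 and 155056 counts in GM and 267972, 270840 and 240576 in DM. Every DM sample was above every GM sample, but by less than for the other chains. The level was 4160 ± 63.8 CPM in GM and 7279 ± 724 CPM in DM, a log2 fold change of 0.81 (SE 0.076, adjusted p = 5.23e-06) or 1.75-fold, which passes the adjusted p but not the fold threshold. It was 0.89, still under that threshold, without DM replicate 3. COL5A2 and COL3A1 are neighbours on chromosome 2. They lie on opposite strands with their ends facing each other, 19675 bases apart, and no gene is listed between them. Their log2 fold changes were nonetheless 0.81 and 2.24.

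COL5A3 (ENSBTAG00000010179, chr7:15769155-15811269, minus strand) encodes the third type V chain, which occurs in some tissues together with the chains above. Its counts were 1028, 1020 and 980 in GM and 22467, 21730 and 27849 in DM. All DM samples were far above the GM samples, and DM replicate 3 was the highest of all. Its level was 25.1 ± 0.703 CPM in GM and 671 ± 79.6 CPM in DM, a log2 fold change of 4.74 (SE 0.098, adjusted p = 4.16e-10) or 26.8-fold. Only 223 of the tested genes had a larger log2 fold change. Among all listed genes ordered by counts, COL5A3 stood at place 5847 to 6054 in GM and at place 170 to 219 in DM. Without DM replicate 3 the log2 fold change was 4.66 (adjusted p = 3.6e-27).

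Type XI collagen is the close relative of type V in cartilage, and its chains can mix with type V chains in other tissues. COL11A1 (ENSBTAG00000021217, chr3:40448699-40682012, plus strand) had 20273, 18047 and 18465 counts in GM and 38683, 42965 and 33137 in DM. The level was 470 ± 31.3 CPM in GM and 1072 ± 153 CPM in DM, a log2 fold change of 1.19 (SE 0.101, adjusted p = 2.36e-06) or 2.28-fold. Without DM replicate 3 the log2 fold change was 1.31 (adjusted p = 7.72e-16), and with all samples a test against a 2-fold change gave an adjusted p of 0.074. COL11A2, another type XI chain that is not one of the 10 symbols and was looked up after the values had been seen, was scarce, with 21, 10 and 10 counts in GM and 64, 71 and 55 in DM (log2 fold change 2.38, SE 0.361, adjusted p = 0.000187).

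COL2A1 (ENSBTAG00000013155, chr5:32450298-32481276, plus strand), the cartilage collagen, was near the limit of detection. It had 6, 10 and 2 counts in GM and 16, 16 and 19 in DM. The DM samples were close to each other and lay above all GM samples. The log2 fold change was 1.67 (SE 0.551, adjusted p = 0.0219). The summed counts were 18 in GM and 51 in DM. Scaled by TMM-scaled library size, their rate ratio was 3.19 with a 95% exact interval of 1.83 to 5.81, which covers counting error only. The call was lost without GM replicate 1 (log2 fold change 1.65, adjusted p = 0.0622) and without GM replicate 3 (1.29, adjusted p = 0.0679). Markers of chondrocytes were low as well. Their summed level was 6.95 to 7.73 CPM in GM samples, 4.18 and 4.24 CPM in DM replicates 1 and 2 and 21.0 CPM in DM replicate 3. Of 4 tested chondrocyte markers, 1 was called higher and 1 lower. ACAN, the cartilage proteoglycan aggrecan, had 755 counts in DM replicate 3 and 96 to 130 in every other sample (log2 fold change 1.62, adjusted p = 0.041), and without that library its log2 fold change was 0.14 (adjusted p = 0.556). MATN3, the cartilage matrix protein matrilin-3, was lower in DM, with 180, 156 and 166 counts in GM and 34, 21 and 13 in DM (log2 fold change -2.70, adjusted p = 3.25e-05). COL9A1 had 0 counts in all samples, and LECT1 and EPYC had at most 3 in any sample. COL2A1 had 19 counts in that library and 16 in each of the other DM samples.

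COL27A1 (ENSBTAG00000019807, chr8:105095607-105201635, plus strand), which encodes a fibrillar chain of developing cartilage, was the family's exception in direction. Its counts were 677, 759 and 615 in GM and 192, 232 and 288 in DM, so that every DM sample was below every GM sample. The level was 16.9 ± 1.14 CPM in GM and 6.60 ± 1.07 CPM in DM, a log2 fold change of -1.36 (SE 0.132, adjusted p = 6.54e-06), or 2.56-fold higher in GM. Without DM replicate 3, its highest DM sample, the log2 fold change was -1.49 (adjusted p = 1.63e-11).

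**Figure D3:**
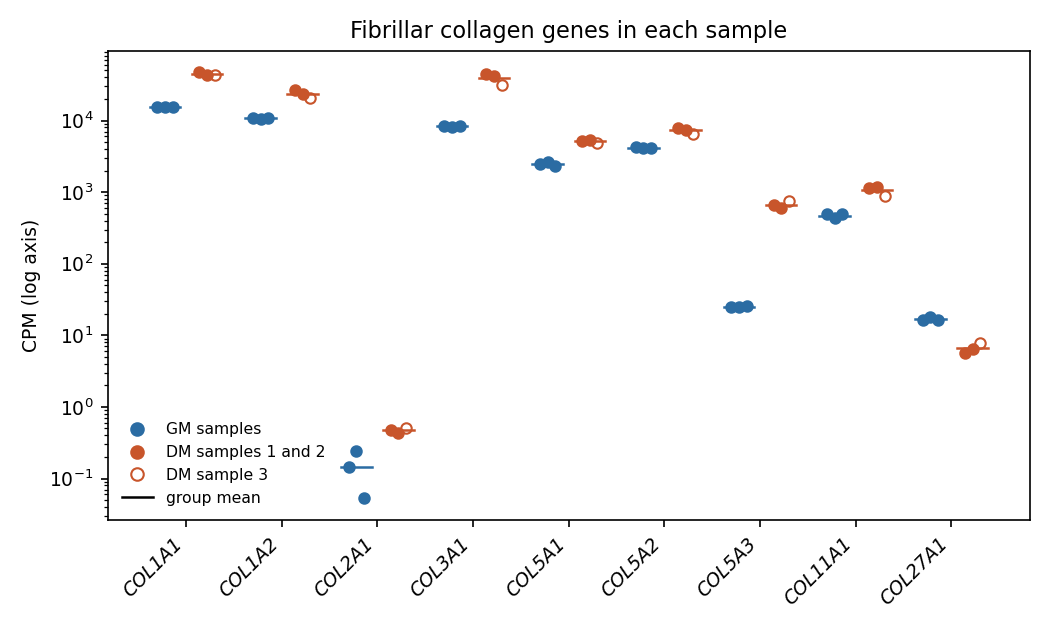
TMM-scaled CPM (log axis) of the 9 fibrillar collagen genes in each sample, with GM in blue, DM in orange, DM replicate 3 as an open circle and lines at the group means. GM and DM samples do not overlap for any of the 9 genes, and the DM mean lies above the GM mean for each gene except COL27A1.

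The coefficient of variation was larger among DM than among GM samples for most of the genes, COL5A1 and COL2A1 being the exceptions. Relative to the mean CPM of DM replicates 1 and 2, DM replicate 3 was at 0.725 for COL3A1, 0.772 for COL11A1, 0.815 for COL1A2 and 0.848 for COL5A2. COL5A1 (0.938) and COL1A1 (0.940) were closer to the other DM samples. COL5A3 (1.196), COL27A1 (1.30) and COL2A1 (1.13) were higher in that library, so the genes did not deviate in 1 direction. These are descriptions of a single library and carry no test.

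The same library also differed in its cell type markers. The summed level of myogenic markers was 2909 to 3469 CPM in GM samples, 6082 and 6343 CPM in DM replicates 1 and 2 and 8275 CPM in DM replicate 3. Of 13 tested markers, 8 were called higher and 1 lower, MYF5 (log2 fold change -2.70). PAX7 (-0.92), CDH15 (-0.53) and DES (-0.15) were also below 0 but were not called. Most of the sum came from DES, MYH3 and ACTA1, so it does not measure the number of myogenic cells. The summed level of fibroblast markers was 1744 to 1797 CPM in GM samples, 5638 and 5303 CPM in DM replicates 1 and 2 and 4060 CPM in DM replicate 3, with 6 of 10 tested markers called higher. DCN, the small proteoglycan decorin that binds collagen fibrils, went from 447 ± 15.7 CPM to 2311 ± 608 CPM (log2 fold change 2.37, SE 0.164, adjusted p = 5.21e-07), and without DM replicate 3 its log2 fold change was 2.58. PDGFRA, a receptor of fibro-adipogenic cells, went from 575 ± 16.6 CPM to 859 ± 182 CPM (0.58, SE 0.129, adjusted p = 0.00252) and was not called. The DM samples thus had the same order in the fibroblast marker sum as in the fibrillar collagen share, and the reverse order in the myogenic marker sum. Abundant markers weigh most in such sums, and single markers did not all follow them. In DM replicates 1 to 3, DCN (2734, 2584 and 1614 CPM) followed the fibroblast sum, but DPT (285, 273 and 327 CPM) was highest in DM replicate 3. MYH3 (55632, 67229 and 100193 counts) followed the myogenic sum. However, MYOD1 (2270, 2745 and 1455 counts) and PAX7 (415, 400 and 226 counts) were lowest in DM replicate 3. Over 3 samples such an order carries no test, and the part of either cell type in the collagen result was not tested.

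Markers of other cell types that can make fibrillar collagens are given beside the background, in which 25.3% of all tested genes were called. The tenocyte markers summed to 627 to 750 CPM in GM samples and 1249 to 1333 CPM in DM samples, with 2 of 7 called higher, and their most abundant members were FMOD (log2 fold change 0.94) and EGR1 (-0.03), neither called. The osteoblast markers summed to 111 to 120 CPM in GM and 126 to 188 CPM in DM, with 3 of 7 called higher and 1 lower. Their most abundant members, SPP1 (log2 fold change -0.03) and RUNX2 (-0.42), were not called, and DMP1 had 0 counts in all samples. The smooth muscle and pericyte markers summed to 1277 to 1476 CPM in GM and 1517 to 1802 CPM in DM, with 2 of 8 called higher, and ACTA2 (0.18) and CSPG4 (0.44) did not pass the test. CSPG4 was at -0.18, also not called, without DM replicate 3. The calls in these lists fell on less abundant members. For tenocytes these were THBS4 (3.19) and SCX (2.46), the latter with 1 to 27 counts per sample. For osteoblasts they were ALPL (5.45, from 1.14 to 49.3 CPM), PHEX (1.44) and IBSP (1.19), all higher, and SP7 (-2.785), lower. For smooth muscle and pericytes they were KCNJ8 (5.60) and ABCC9 (4.59). The part of these cell types in the collagen result was not tested.

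Other lists were at low levels. The Schwann cell markers summed to 2.26 to 4.77 CPM in GM and 34.4 to 46.4 CPM in DM, with ERBB3 at 1.94 CPM in GM and 37.8 CPM in DM (log2 fold change 4.29). S100B, at 1.32 CPM in GM and 1.62 CPM in DM (0.30), was not called. The adipocyte markers summed to 6.94 to 8.34 CPM in GM and 7.27 to 8.84 CPM in DM, with CIDEC higher (1.31), PPARG lower (-3.73), and 2 of 6 called higher and 1 lower in all. The endothelial markers summed to 5.937 to 6.004 CPM in GM and 7.02 to 9.43 CPM in DM, with 1 of 7 called higher (TEK, 1.52) and 3 lower, and CLDN5 (0.70) did not pass the test. The leukocyte markers summed to 6.22 to 8.42 CPM in GM and 7.32 to 13.9 CPM in DM, with CD14 higher (2.75), CD68 lower (-1.04; -0.89 and not called without DM replicate 3), and PTPRC and CD3E at no more than 3 counts in any sample.

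Levels of different genes were compared per length, as the deposited RPKM. In GM samples the order of the mean RPKM was COL1A1 (3340 ± 18.2), COL1A2 (2401 ± 66.8), COL3A1 (1888 ± 46.7), COL5A2 (956 ± 15.6), COL5A1 (399 ± 24.3), COL11A1 (66.3 ± 4.54), COL5A3 (4.50 ± 0.128), COL27A1 (2.95 ± 0.193) and COL2A1 (0.0295 ± 0.0189). Neighbours in this order did not overlap between samples. In DM samples the order was COL1A1 (9044 ± 418), COL3A1 (8338 ± 1449), COL1A2 (4892 ± 579), COL5A2 (1563 ± 143), COL5A1 (773 ± 37.6), COL11A1 (141 ± 20.4), COL5A3 (113 ± 12.9), COL27A1 (1.08 ± 0.183) and COL2A1 (0.0898 ± 0.00686). In DM, COL1A1 and COL3A1 did not differ beyond their spread, and neither did COL11A1 and COL5A3.

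The make-up of the fibrillar collagen RNA therefore differed between the groups, although the part of COL1A1 differed by less than its spread. As a percentage of the summed RPKM of the 9 genes, COL1A1 was 36.9 ± 0.468 in GM and 36.5 ± 2.59 in DM. COL3A1 went from 20.8 ± 0.417 to 33.4 ± 2.67, while COL1A2 went from 26.5 ± 0.454 to 19.7 ± 0.369 and COL5A2 from 10.6 ± 0.136 to 6.29 ± 0.0755. COL5A1 went from 4.401 ± 0.285 to 3.13 ± 0.274. COL5A3 stayed a trace chain, at 0.0497 ± 0.00151 in GM and 0.459 ± 0.101 in DM.

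Ratios of chains within a sample do not depend on library size. The COL1A1 to COL1A2 ratio of RPKM was 1.36, 1.44 and 1.39 in GM replicates 1 to 3 and 1.76, 1.78 and 2.04 in DM replicates 1 to 3. The groups did not overlap, and the mean log2 ratio was 0.42 higher in DM (SE 0.073). The COL3A1 to COL1A1 ratio was 0.571, 0.547 and 0.578 in GM and 0.981, 1.01 and 0.767 in DM, a log2 difference of 0.69 (SE 0.129). Here DM replicate 3 was the lowest DM sample but was still above every GM sample, and without it the log2 difference was 0.82. The COL5A1 to COL5A2 ratio was 0.417 ± 0.0219 in GM and 0.497 ± 0.0378 in DM (log2 difference 0.25, SE 0.078). The type V chains COL5A1 and COL5A2 together, set against the type I chains together, went the other way, from 0.236 ± 0.00642 in GM to 0.168 ± 0.00609 in DM (log2 difference -0.49, SE 0.038). For each of these 4 ratios the exact two-sided permutation test gave p = 0.1, which is the lowest that this design allows, and the Benjamini-Hochberg adjusted p over the 4 was also 0.1.

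A few further ratios were chosen after values had been seen and carry no test. COL5A3 to COL5A1 was 0.0113 ± 0.00102 in GM and 0.146 ± 0.0233 in DM. COL3A1 to its neighbour COL5A2 was 1.97 ± 0.0649 in GM and 5.31 ± 0.469 in DM. COL11A1 to COL5A1 was 0.167 ± 0.0202 in GM and 0.182 ± 0.0198 in DM, and for this ratio the samples of the groups overlapped.

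**Figure D4:**
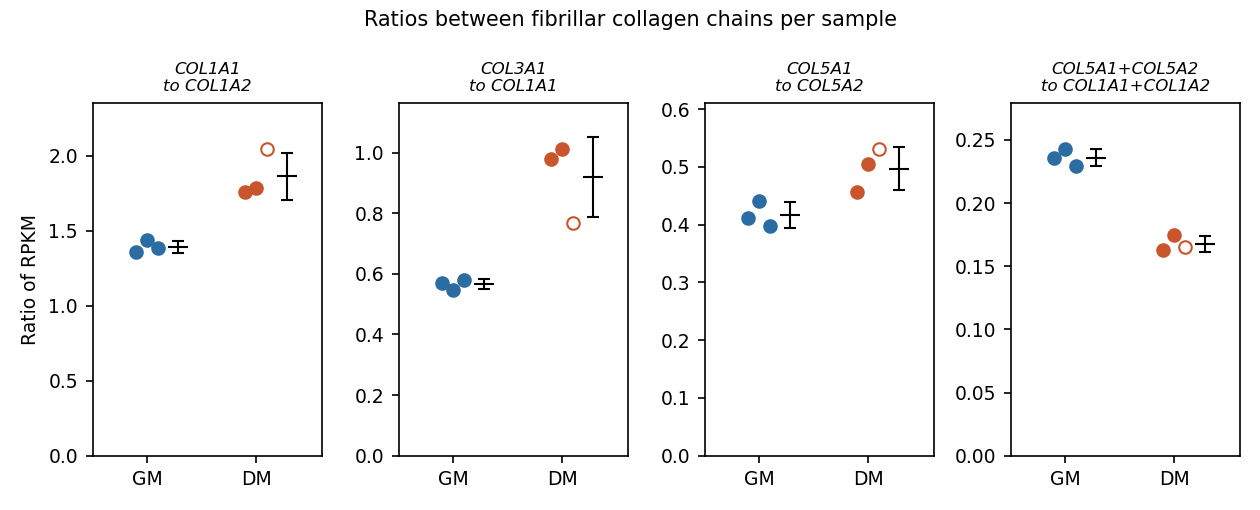
Ratios of RPKM between fibrillar collagen chains in each sample (linear axes from 0), with GM in blue, DM in orange, DM replicate 3 as an open circle, and the mean ± SD of each group in black (n = 3). COL1A1 to COL1A2 and COL3A1 to COL1A1 are higher in every DM sample than in any GM sample, and the type V to type I ratio is lower in every DM sample.

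The mRNA table counts the same reads by transcript, so its directions are not separate support for those of the genes. For the 7 genes with 1 transcript, the transcript held 100% of the gene's counts in both groups. It listed 11 transcripts of the 9 genes, of which 9 were called higher in DM and 1, that of COL27A1, lower, compared with 15.5% of tested mRNA transcripts called higher. The COL5A2 transcript was not called (log2 fold change 0.79). COL3A1 and COL2A1 each had a pair of transcripts, and these were not independent. The COL3A1 transcripts ENSBTAT00000028617 and ENSBTAT00000038678 held 99.9% and 64.9% of the gene's counts in GM and 99.95% and 63.99% in DM, so reads in shared exons were counted for both. Their log2 fold changes were 2.22 and 2.20, and the part of the COL3A1 counts on each transcript was thus nearly the same in both groups. Genes of miRNAs lie on the same strand within COL5A2 (bta-mir-2917, at most 1 count in any sample) and within COL27A1 (bta-mir-455, 0 counts in all samples). The libraries were made from polyA RNA, so these counts do not measure mature miRNAs.

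The genes that make, export, trim, bind and degrade fibrillar collagens were described as 8 lists, in which 127 genes were tested. Of these, 33 were called higher in DM and 12 lower, 35.4% in all, beside 25.3% of all tested genes (15% higher and 10.3% lower). The median log2 fold change over the 127 genes was 0.45, against 0.03 over all tested genes. By list, the share called was 11.1% for modification and folding, 0% for export, 53.3% for cleavage and crosslinking, 47.4% for fibril-associated proteins and 57.1% for other collagens. It was 37.5% for receptors, 58.3% for proteases and inhibitors and 19.1% for regulators. With 8 to 21 genes a list, these shares carry no test. DCN, LUM and DPT stand both among the fibril-associated proteins and among the fibroblast markers above, and the part of cell types in these values was not tested.

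The 18 tested genes of procollagen modification and folding had none called higher and 2 called lower (edgeR and DESeq2 alike), and 6 were higher and 7 lower at an unadjusted p under 0.05. The median log2 fold change of this list was 0.12. P3H2, a prolyl 3-hydroxylase, had 2061, 1930 and 1668 counts in GM and 31, 72 and 53 in DM (log2 fold change -5.01, SE 0.178, adjusted p = 7.04e-09). SERPINH1, the collagen chaperone HSP47, was named after its value was seen. It had a log2 fold change of -0.24 (SE 0.074, adjusted p = 0.0161) and was not called, beside fibrillar collagen counts that were 2.73 times as large a share in DM. P4HA1, a catalytic subunit of prolyl 4-hydroxylase that was also chosen after its value was seen, had a log2 fold change of 0.71 (SE 0.065, adjusted p = 4.2e-06) and was not called. Of the 13 tested genes of procollagen export, none was called in either direction by edgeR or DESeq2. This list also held the endoplasmic reticulum folding proteins HSP90B1, HSPA5 and PDIA3 and the transcription factors CREB3L1 and CREB3L2. Its values are therefore not those of export genes alone. At an unadjusted p under 0.05, 5 of the 13 were higher and 6 lower, 10 of the 13 had an adjusted p under 0.05 with changes under the fold threshold, and the median log2 fold change was 0.08.

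Among 15 genes of propeptide cleavage and crosslinking, 4 were called higher and 4 lower, and the median log2 fold change was 0.50. PCOLCE, which enhances removal of the C-propeptide, went from 233 ± 8.19 to 1190 ± 68.3 CPM (log2 fold change 2.35, SE 0.067, adjusted p = 2.02e-09). LOXL4, a lysyl oxidase of the crosslinking family, went from 19.97 ± 1.199 to 70.2 ± 18.2 CPM (1.81, SE 0.157, adjusted p = 2.74e-06).

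Of 19 fibril-associated proteins, which coat or link fibrils, 8 were called higher and 1 lower, with a median of 1. ASPN, the small leucine-rich protein asporin, had 118, 94 and 117 counts in GM and 4832, 5777 and 5222 in DM (log2 fold change 5.76, SE 0.113, adjusted p = 3.67e-10). COL16A1, a collagen with interrupted triple helices that associates with fibrils, went from 51.0 ± 1.65 to 577 ± 51.2 CPM (3.50, SE 0.081, adjusted p = 6.88e-10). Of 21 other, non-fibrillar collagens, 10 were called higher and 2 lower, with a median of 1.16, close to that of the fibrillar genes. COL8A1, a short-chain collagen, went from 2.90 ± 0.383 to 32.4 ± 6.76 CPM (3.48, SE 0.167), and COL18A1, of basement membranes, from 22.2 ± 1.10 to 129 ± 36.99 CPM (2.54, SE 0.171).

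Of 8 collagen receptors, 2 were called higher and 1 lower, with a median of 0.52. MRC2, which takes up collagen for breakdown, went from 281 ± 9.38 to 813 ± 55.3 CPM (1.53, SE 0.068, adjusted p = 2.46e-08), and ITGA11, a collagen-binding integrin chain, from 6.77 ± 1.31 to 14.6 ± 1.23 CPM (1.11, SE 0.151, adjusted p = 8.26e-05). Without GM replicate 2 only 1 receptor gene was called. Of 12 collagen-degrading proteases and their inhibitors, 6 were called higher and 1 lower, with a median of 1.06. CTSK, the collagen-cleaving cathepsin K, had 8094, 8432 and 7792 counts in GM and 31747, 29701 and 72722 in DM (2.62, SE 0.276, adjusted p = 1.17e-05), so DM replicate 3, lowest for the summed fibrillar collagens, was by far the highest for this protease. Without that library the log2 fold change of CTSK was 2.13 (adjusted p = 3.78e-20). FAP, a fibroblast surface protease, went from 67.2 ± 2.79 to 333 ± 5.05 CPM (2.31, SE 0.061, adjusted p = 1.28e-09).

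Of 21 regulators of collagen genes, 3 were called higher and 1 lower, with a median of 0.08. The ligand TGFB2 went from 39.2 ± 2.93 to 113 ± 9.49 CPM (1.53, SE 0.084, adjusted p = 9.94e-08), while the related ligand TGFB1 went from 54.1 ± 2.75 to 19.5 ± 1.47 CPM (-1.47, SE 0.080, adjusted p = 9.61e-08). Both ligands are known to stimulate collagen gene expression.

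**Figure D5:**
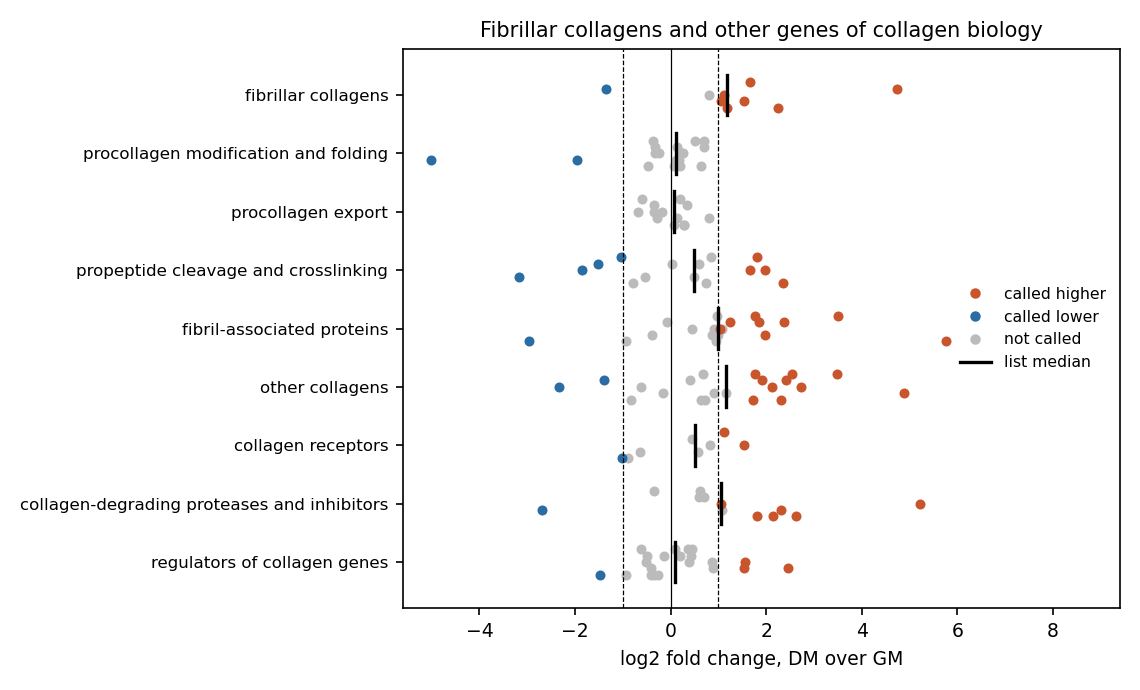
log2 fold change, DM over GM, of every tested gene in the fibrillar collagen group and in 8 lists of related genes, with genes called higher in orange, called lower in blue and not called in grey, and the list median as a black bar. The medians of the modification, export and regulator lists lie near 0, and those of the fibril-associated, other collagen and protease lists lie near that of the fibrillar collagens (1.19).

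The genes whose pattern over the 6 samples was most like that of the summed fibrillar collagens were sought among 8973 other genes of 10 CPM or more on average, by the root mean square difference of centred log2 CPM. The nearest were ENSBTAG00000046879 (difference 0.034), ENSBTAG00000012317 (0.040), PrP (0.050), MXD4 (0.055) and GLB1 (0.063). These had log2 fold changes of 1.55, 1.49, 1.56, 1.58 and 1.53, whose closeness follows from how the genes were chosen. By the same measure COL1A1, itself a large part of the family's sum, differed from that sum by 0.057. COL11A1 differed by 0.197, COL1A2 by 0.213, COL5A1 by 0.259, COL3A1 by 0.349, COL5A2 by 0.370 and COL2A1 by 0.451. COL27A1 (1.47) and COL5A3 (1.61) were the farthest from it.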

How the data were processed

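PolyA RNA-seq of 6 samples was analysed, 3 GM and 3 DM, grouped by the labels. The authors deposited raw counts per gene and per mRNA transcript, and RPKM values that equal these counts scaled by summed counts and the listed length. For alignment the paper names HISAT2 and the buffalo genome. The tables hold cattle Ensembl identifiers and no build, and the submitters' processing notes list Bowtie 0.12.2, mm8 and mm9. The sources thus differ on how the deposited counts were made. Deposited lists of the authors' log2 fold changes, p-values and q-values, and the ncRNA table, were not used. All sample columns were mapped.

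Features with at least 10 counts in total were tested by the quasi-likelihood functions of edgeR 4.0.16 (R 4.3.3), using glmQLFit, glmQLFTest, TMM scaling and Benjamini-Hochberg adjustment. TMM factors were 1.03 to 1.04 in GM and 0.948 to 0.983 in DM. CPM used TMM-scaled library sizes, and SEs came from the F statistic. Shares and ratios of chains were compared with exact two-sided permutation tests. Python 3.11.15, pandas 2.3.3, numpy 2.4.6, scipy 1.17.1 and matplotlib 3.10.9 were used. On simulated data with 200 features changed 4-fold, 183 of the changed genes and 185 of the changed mRNAs were recovered, with 2 and 0 false calls. The simulation used the same dispersion for every feature, no deviating library and far fewer changed features than were called here. It checks that the code runs as intended and does not give the error rate of the calls above.

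The members and lists were chosen with earlier results of these data known, and the lists were written from general knowledge. Named genes were the members; in each pathway list the 2 called genes with the largest change and a mean of at least 10 CPM; in each marker list the 2 most abundant genes; and the 5 genes most like the members' sum. COL11A2, SERPINH1, P4HA1 and further markers were named after their values were seen. Alternatives were DESeq2 1.42.0, other scalings, filters and fold thresholds, a replicate block and each sample left out in turn. Same-numbered samples did not deviate together (correlations of -0.008, -0.022 and -0.010), so the numbers were not taken as pairs.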

Additional observations from a re-analysis of the deposited data

How the results depend on the processing

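Over 14 alternatives per gene, COL1A1, COL3A1, COL5A3 and COL27A1 kept their calls and none of the 9 genes changed direction. Of all tested genes, 3936 were called, 9813 with no minimum fold change and 2293 when tested against a fold change of 2. Of the fibrillar collagens, 8 were called, 9 with no minimum fold change and 4 against a fold change of 2, where COL1A2, COL2A1, COL5A1 and COL11A1 were lost. In the 8 lists of related genes 45 were called in all, and 101 with no minimum fold change. With each sample left out in turn, the ranges were 3647 to 3995 genes, 7 to 8 fibrillar collagens, 7 to 10 of their transcripts, 41 to 51 genes of the lists and 6.94 to 8.07 percentage points of share. The log2 differences of the ratios were then 0.35 to 0.45 for COL1A1 to COL1A2, 0.62 to 0.82 for COL3A1 to COL1A1, 0.20 to 0.31 for COL5A1 to COL5A2 and -0.52 to -0.47 for type V to type I. A replicate block, although the labels do not say that same-numbered samples are pairs, gave 3837 genes and the same 8 fibrillar collagens. It changed no call of the family. DESeq2 called 3673 genes. COL2A1 had the fewest counts of the family, 2 to 19 per sample, and was the fibrillar collagen whose call was lost when a sample was left out.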
